A study of Bos taurus with 15 samples.

Results

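The gene set described here is the 60 genes whose expression moved most closely with MX1 across 15 beef heifers. It was drawn from 12264 genes, which are the 12270 genes with at least 1 CPM, a gene's share of the counts scaled to a common library size, in at least 8 of the 15 heifers, less MX1 itself and 5 genes that the rule leaves out. Each gene's log2 CPM was correlated with that of MX1 over the 15 heifers, and the 60 genes with the highest Pearson r were taken. They are called members below and are numbered by r, so that member 1 had the highest r and member 60 the lowest. Members were thus chosen by their measured r with MX1, so these correlations are a description and carry no test. RNA was taken from peripheral white blood cells (PWBC), the mixed leukocytes of blood, of Angus-Simmental crossbred heifers at weaning. All heifers later went through the same estrus synchronization and timed artificial insemination (AI), followed by exposure to bulls. The groups were 8 heifers that conceived to AI and 7 that carried no pregnancy at palpation, called not-pregnant (the labels say only that they were not pregnant to AI), while heifers that conceived to the bulls were left out by the study, and each heifer gave 1 library.

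MX1 encodes a GTPase of the dynamin family that interferes with the replication of many viruses and that is induced by type I interferons. These cytokines bind a shared receptor on the cell surface and switch on a large set of interferon-stimulated genes. In cattle the MX1 transcript in blood leukocytes is also known as a marker of early pregnancy, because the conceptus releases interferon tau. The blood used here was drawn before breeding. MX1 is the gene ENSBTAG00000030913, a name given with the rule. The deposited tables and the RefSeq table used here do not pair Ensembl IDs with symbols (0 of the 27607 IDs matched), so neither this name nor any function of a member could be checked, and 4 members are given by ID and the others by number only.

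Between 15987111 and 24909038 counts fell on genes per heifer, and the composition (TMM) factors lay between 0.842 (heifer 48) and 1.14 (heifer 43). Heifers 4 and 37 stood apart from their groups over all genes. The score of heifer 4 on the first principal component was -33.8, among those of the not-pregnant heifers, and that of heifer 37 was 21.2, among those of the heifers pregnant to AI. Values without each of them are given where a result rests on them. Leukocytes are a mixture, and in such bulk samples fewer cells of a type and less RNA per cell cannot be told apart.

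MX1 was high in heifers 33 and 43 and low in heifer 4, and these extremes lay in both groups. In the heifers pregnant to AI the CPM of MX1 was 195.0 at the lowest (heifer 4), 350.0 at the median and 829 at the highest (heifer 43). In the not-pregnant heifers it was 288 at the lowest (heifer 3), 380.3 at the median and 862 at the highest (heifer 33). The groups overlapped over most of their range, and 3 of the 8 heifers pregnant to AI and 4 of the 7 not-pregnant heifers were above the median of all heifers. From the lowest to the highest heifer MX1 spanned 2.14 on the log2 scale, which is 4.42-fold. Heifer 6, pregnant to AI, and heifer 37, not-pregnant, came next, with 582 and 503 CPM.

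**Figure D1:**
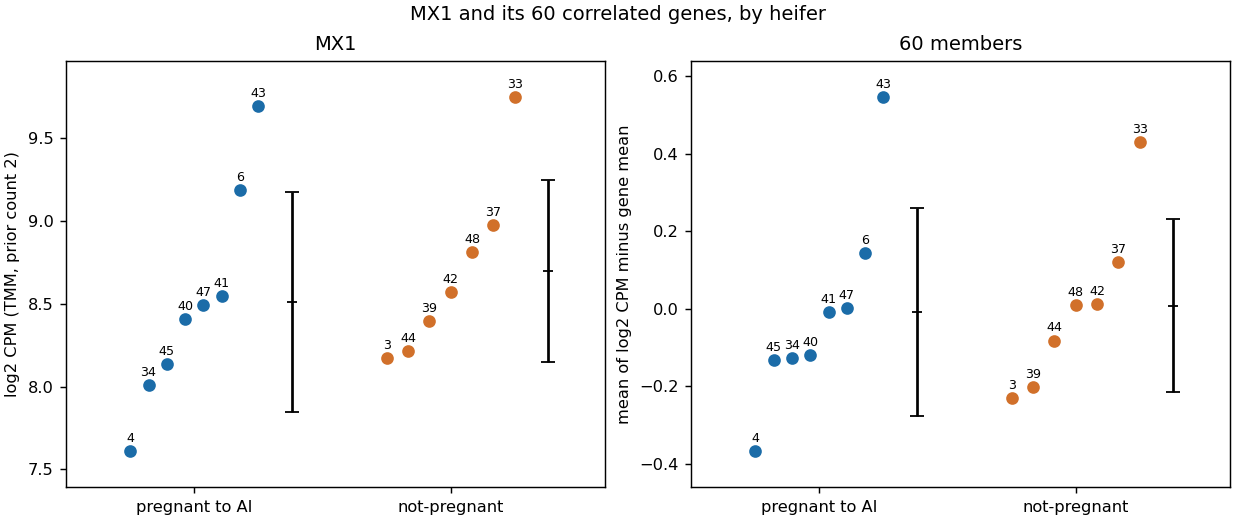
Left, log2 CPM of MX1, and right, the mean over the 60 members of log2 CPM minus each gene's mean, for each heifer by pregnancy outcome. Numbers are heifer IDs, and the black bars give the mean and SD of 8 heifers pregnant to AI and 7 not-pregnant heifers. Heifers 43 and 33 are the highest and heifer 4 the lowest on the right, and the groups overlap in both plots.

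The members followed MX1 with r between 0.69 and 0.88 and a median of 0.73, and 7 of the 60 had r of at least 0.8. Over all 12264 genes the median r with MX1 was 0.02. The edge of the set was gradual. Members 56 to 60 had r between 0.691 and 0.698, and the 5 genes just outside had r between 0.686 and 0.688. By rank (Spearman) the correlation of the members with MX1 was lower, with a median rho of 0.65 and a lowest rho of 0.46 (member 59). The members were less closely tied to each other than to MX1, since the median r over the 1770 pairs of members was 0.57 and the lowest was 0.16. A first component held 58.4% of their scaled variance, against 36.9% for all kept genes. Genes chosen by their r with MX1 share variance through that choice, so these values are descriptions only. Once the part that follows MX1 was removed from each member by linear regression, the median r between pairs was 0.03, with single pairs between -0.80 and 0.93.

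MX1 was not among the genes with the tightest followings. When each of the 12270 genes was used as the anchor in turn, with no gene left out, the r of the 60th gene was 0.77 at the median and 0.97 at the highest. For MX1 it was 0.695, and 28.8% of genes had a lower value.

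Heifers 43 and 33 carried the upper end of the set. For each heifer the member level is the mean over the 60 members of log2 CPM minus the gene's mean over heifers. It was 0.55 in heifer 43 and 0.43 in heifer 33, and the next heifers were 6 at 0.14 and 37 at 0.12. It was lowest in heifer 4, at -0.37, followed by heifers 3 at -0.23 and 39 at -0.20. Heifer 43 was above the median in 60 of 60 members and heifer 33 in 59, while heifer 4 was below it in 56. Of the 60 members, 30 were highest in heifer 43, 15 in heifer 33 and 8 in heifer 6, and 23 were lowest in heifer 4, 12 in heifer 39 and 9 in heifer 3. Heifers 33 and 43 were the 2 highest heifers in 30 members.

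**Figure D2:**
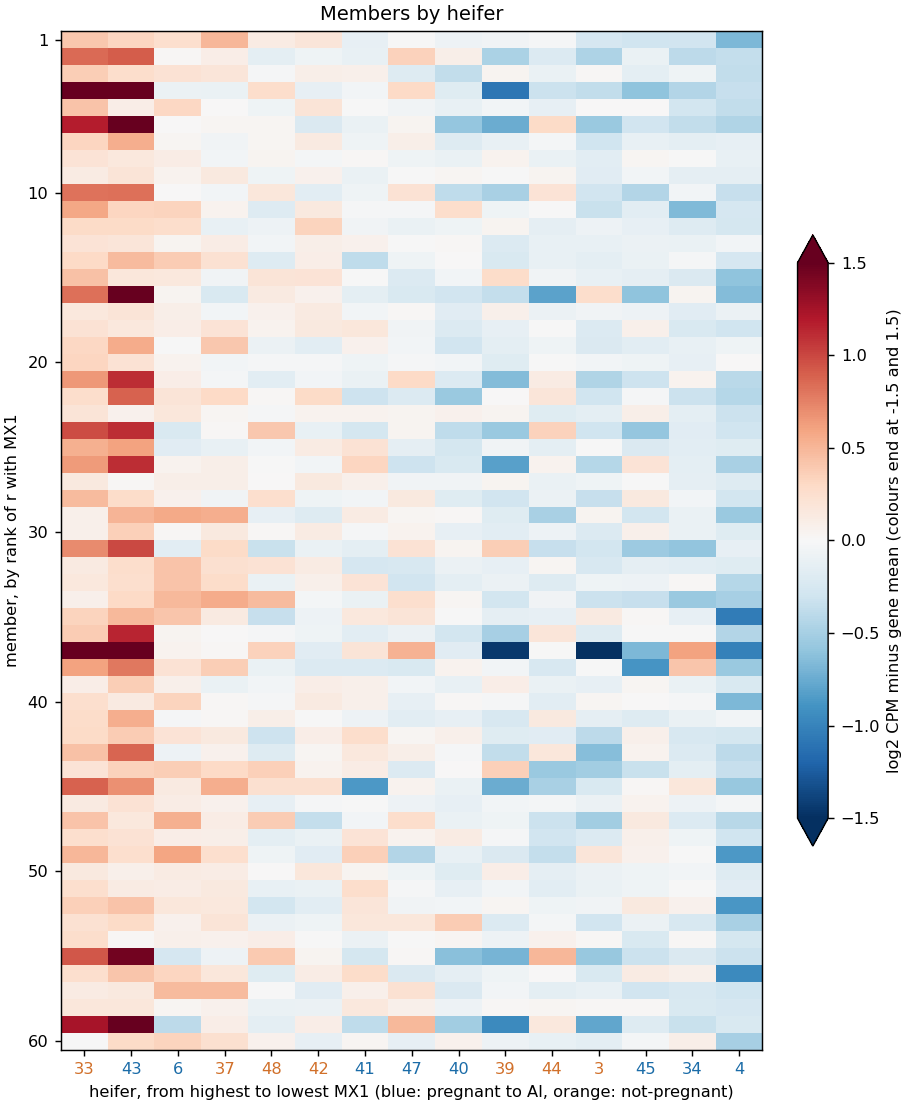
Each row is 1 of the 60 members, ordered by r with MX1, and each column a heifer, ordered from the highest MX1 (left) to the lowest. Colour is log2 CPM minus the gene mean, and the scale saturates at 1.5 in either direction. Heifers 33 and 43 are red in nearly all rows, with the strongest colour in a minority of rows such as 4, 16, 37 and 59, and heifer 4 on the right is blue in most rows.

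Library measures moved only in part with the member level. Heifer 33 had the most counts on genes and heifer 43 the highest TMM factor. Over the 15 heifers the member level had an r of 0.31 with log2 of the counts on genes, 0.42 with the TMM factor, -0.45 with the share of counts in the 100 most abundant genes and 0.45 with the first principal component. Without heifers 33 and 43 these were -0.12, 0.29, -0.10 and 0.42. These correlations are descriptions over 15 and 13 heifers, and the part of these measures in the member level was not tested. With every library thinned to 15987111 counts, or scaled by library size only, heifers 43 and 33 stayed the highest and heifer 4 the lowest.

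The amplitude of the members was modest and uneven. From the lowest to the highest heifer a member spanned 0.86 on the log2 scale at the median, or 1.82-fold, and this was less than the 1.01 of all kept genes. The range was over 1 in 28 of 60 members (46.7%, against 50.5% of all kept genes) and over 2 in 6. The widest range belonged to member 37, ENSBTAG00000039861, with 4.03, or 16.3-fold, followed by members 59 at 2.79, 16 at 2.74, 4 at 2.67 and 6 at 2.48. The narrowest belonged to member 27, ENSBTAG00000014175, with 0.34, or 1.27-fold, followed by members 46, 8, 17 and 9, all of which spanned at most 0.362. Even narrow ranges rested on many reads. Chi-square per degree of freedom measures how far a member's counts vary between heifers beyond counting error (1 for none). It was 43.0 at the median (16.1 over all kept genes), and it was above 5 in 47 of the 60 members. In the 5 narrowest members it was lower, at 11.6 (member 27), 5.19 (member 46), 4.17 (member 8), 7.87 (member 17) and 4.57 (member 9). This measure grows with the counts, and the members were more abundant, so the comparison with all kept genes is not a like one. The mean log2 CPM was 5.67 at the median member, against 4.67 over all kept genes. Chi-square per degree of freedom was lowest in member 47, at 1.58, and member 57, at 1.59. Their lowest counts were 16 and 27 in a heifer, so that counting error was a large part of their spread. In all, 6 members had a heifer with under 50 counts, and the most deeply counted, member 30, had at least 12690 in every heifer.

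Member 1, ENSBTAG00000046320, followed MX1 through the whole order of the heifers and not at its ends only. In the heifers pregnant to AI its log2 CPM was 5.17 at the lowest, 5.75 at the median and 6.17 at the highest. In the not-pregnant heifers it was 5.60, 5.97 and 6.35. Heifer 37 was highest, ahead of heifers 33, 43 and 6, and heifer 4 was lowest. Its r with MX1 was 0.88 over all heifers and 0.91 without heifers 33 and 43. Member 34 had an r of 0.73 that was 0.90 without these heifers, and it too was highest in heifer 37. Unlike member 1, it was only 0.12 above its median in heifer 33, and it was lowest in heifer 34.

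Member 37, ENSBTAG00000039861, had the other kind of profile. In the heifers pregnant to AI its log2 CPM was 2.97 at the lowest, 4.11 at the median and 5.98 at the highest (heifer 43). In the not-pregnant heifers it was 1.96 at the lowest (heifer 3), 3.98 at the median and 5.76 at the highest (heifer 33). Heifers 43 and 33 were more than 1 above the next heifer, which was heifer 34 at 4.59, although heifer 34 had the second lowest MX1. Its r with MX1 fell from 0.73 to 0.39 without heifers 33 and 43.

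Heifers 33 and 43 were the 2 heifers farthest from the median of MX1. Without them the median r of the members with MX1 was 0.55, with a range of 0.15 to 0.91, and 39 of the 60 members still had r of at least 0.5, a value that 4.82% of all genes reached. No member had a negative r there, and 6 were at or under 0.3. The remaining heifers also took part in choosing the members, so a share above that of all genes follows in part from the choice. When the 60 genes with the highest r were chosen again over the remaining 13 heifers, 15 of the members were among them.

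**Figure D3:**
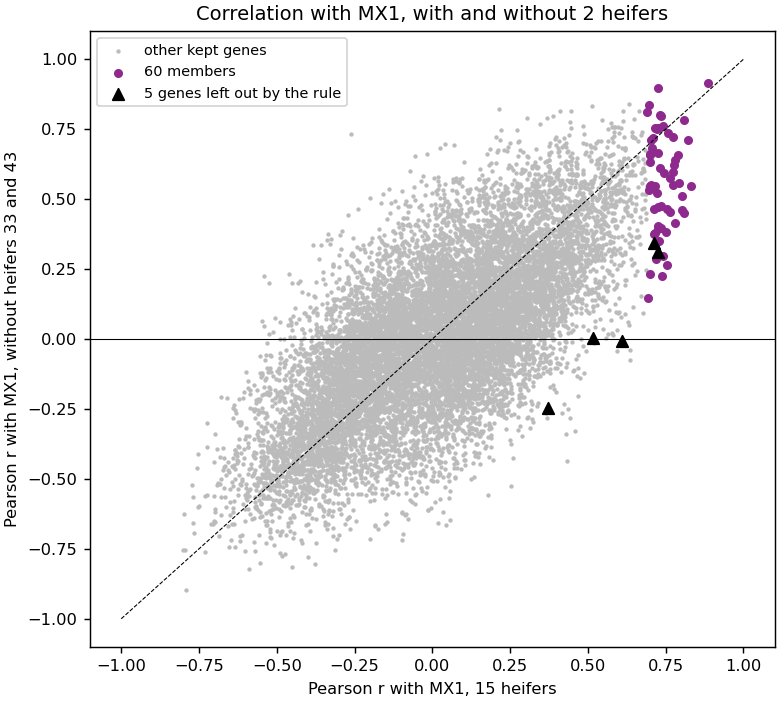
Pearson r with MX1 over 15 heifers (horizontal axis) and over 13 heifers, without heifers 33 and 43 (vertical axis), for kept genes (grey), the 60 members (purple) and the 5 genes the rule leaves out (black triangles). The dashed line marks equal values. Members spread from 0.15 to 0.91 on the vertical axis, and 3 of the triangles lie at or below 0.01 there.

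The 39 members that kept an r of at least 0.5 and the 21 that did not differed in profile. The split was made after the values were seen and uses heifers 33 and 43, so it is a description. Among the 21, every member was highest in heifer 33 or 43, none was lowest in heifer 4 and 10 were lowest in heifer 39. Their median range was 1.68, and heifer 43 lay 1.11 and heifer 33 lay 0.69 above the median heifer on the log2 scale at the median member. Among the 39, 24 were highest in heifer 33 or 43 and 23 were lowest in heifer 4. Their median range was 0.79, and the excess of heifers 43 and 33 was 0.30 and 0.22, while heifer 4 lay 0.35 below the median heifer.

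The 5 genes that the rule leaves out, which were set apart before the members were taken, had r with MX1 of 0.37, 0.52, 0.61, 0.71 and 0.72, so that 2 of them were above the limit of the set. They spanned more than most members, with ranges of 6.50-fold to 17.7-fold. Heifers 33 and 43 were again the highest in their mean level, at 1.59 and 2.11, but heifers 44 and 48 came next at 0.78 and 0.31, and in MX1 heifer 44 was among the low heifers. Without heifers 33 and 43 the r of the 5 genes with MX1 lay between -0.25 and 0.34. Their mean level had an r of 0.69 with MX1 over 15 heifers and 0.11 over 13, where the member level had 0.96 and 0.91 with MX1. Of the members, 11 had an r of at least 0.8 with the mean level of these 5 genes, a value that 0.204% of all genes reached. The members were chosen for following MX1 over these heifers, and this mean level followed MX1 too. The larger share among members thus follows in part from the choice. Heifers 33 and 43 carried much of these correlations too. Without them the r of these 11 members lay between 0.18 and 0.82, with only member 55 at 0.8 or more. That of the member level with the 5 genes was 0.27 in place of 0.80. Over all heifers the highest were member 55 at 0.94, member 24 at 0.94 and member 10 at 0.92. Member 55 had log2 CPM of 8.98 in heifer 43 and 8.46 in heifer 33, then 8.02 in heifer 44 and 7.92 in heifer 48. The other heifers lay between 6.82 and 7.57.

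Membership rested on heifers 33 and 43 more than on the others. Without heifer 33, 28 of the 60 members were again among the 60 highest, and without heifer 43, 32 were. Leaving out any other heifer kept between 39 (without heifer 34) and 55, with 40 without heifer 4 and 52 without heifer 37. In all, 14 members were kept in each of the 15 choices, and 11, all ranked between 50 and 60, were kept in fewer than 8.

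**Figure D4:**
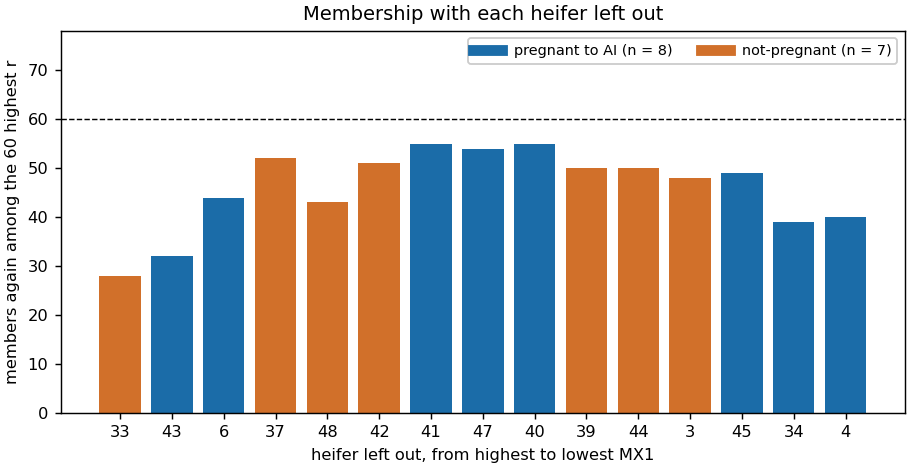
Number of the 60 members that were again among the 60 genes with the highest r with MX1 after 1 heifer was left out, for each heifer from the highest MX1 (left) to the lowest, in blue for heifers pregnant to AI and orange for not-pregnant heifers. The dashed line marks 60. The lowest bars are heifers 33 (28 members) and 43 (32 members).

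The correlation was present within both outcome groups. The members were chosen over these same heifers, so high values within the groups follow in part from the choice. Within the 8 heifers pregnant to AI the members had r with MX1 between 0.59 and 0.97, with a median of 0.78. Within the 7 not-pregnant heifers r lay between 0.40 and 0.94, with a median of 0.76. Each group held 1 of the heifers with the highest MX1, so these values share the dependence described above. An r of at least 0.5 was reached by 17.9% of all genes within the first group and by 10.4% within the second. With each gene centred within its group the median r was 0.75, and 39 of the members were chosen again.

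The design asks whether expression at weaning differed by later pregnancy outcome, and the rule did not use the outcome. No difference was detected in MX1 or in the members. The log2 fold change of MX1, pregnant to AI over not-pregnant, was -0.15 (standard error 0.30, 95% interval -0.78 to 0.49, edgeR adjusted p = 0.752 over 12270 genes). The direction was not stable, since without heifer 33 the log2 fold change was 0.10, and with library size only as scaling it was 0.016. With 1 surrogate variable it was -0.74 (edgeR adjusted p = 0.492). Of the 60 members, 0 passed the limits for a call (adjusted p up to 0.05 together with a log2 fold change of 0.5 or more in either direction). Over all genes 5.85% passed them, 3.66% with higher expression in the heifers that conceived to AI and 2.19% with lower. At an unadjusted p under 0.05 edgeR also gave 0 members, against 34.4% of all genes. DESeq2 and limma-voom called 0 members as well, where they called 9.1% and 5.95% of all genes. The groups did not separate in any of the 60 members, against 0.53% of all genes. Members were chosen to follow MX1, so with no difference detected in MX1 these counts follow in part from the choice. They are no separate result beside that of MX1. Of the 60 genes with the lowest r with MX1, 1 had an unadjusted p under 0.05 in edgeR.

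The fold changes of the members were small. Over all 15 heifers, with TMM scaling and pregnancy outcome as the only term, they were also balanced. They were positive in 30 members and negative in 30, with a median of -0.0014 beside 0.014 for all genes, and lay between -0.23 and 0.25. With 1 surrogate variable in the model the balance did not hold, and 0 were positive and 60 negative. That variable was itself related to pregnancy outcome, so this fit is no independent adjustment. Member 15, ENSBTAG00000032369, had the smallest adjusted p. In the heifers pregnant to AI its log2 CPM was 6.40 at the lowest, 6.92 at the median and 7.19 at the highest, and in the not-pregnant heifers it was 6.90, 7.20 and 7.45. The values overlapped, and the log2 fold change was -0.23 (standard error 0.11, edgeR adjusted p = 0.158). Members 54, 1, 3 and 50 came next, with log2 fold changes of -0.11, -0.23, -0.15 and -0.084 and edgeR adjusted p-values of 0.240, 0.251, 0.323 and 0.390. The 95% interval of the log2 fold change lay within 0.5 of 0 in 43 of the 60 members, and in 48.0% of all genes. The interval was widest for member 37, from -0.83 to 1.33, so that for this member and the 16 others outside that limit a change of 0.5 could not be told from none.

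**Figure D5:**
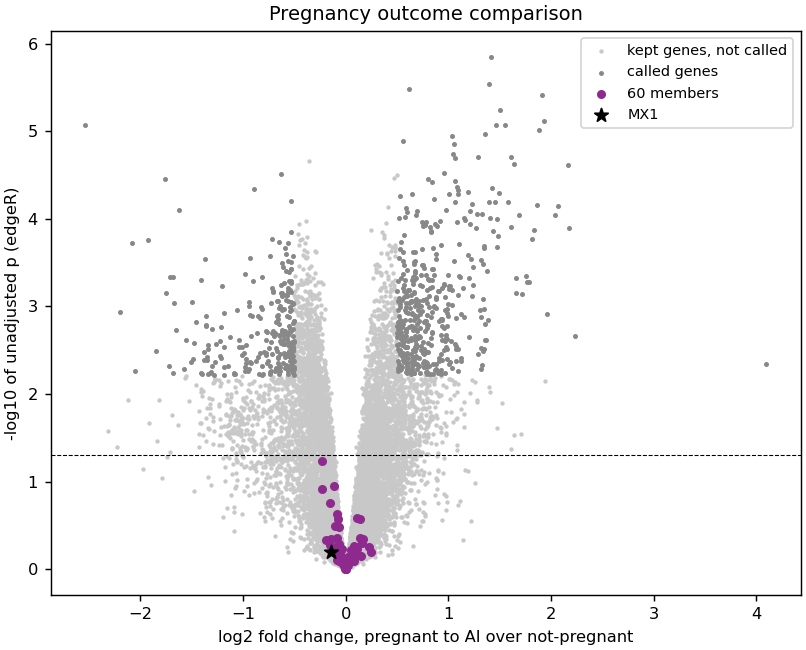
Log2 fold change (pregnant to AI over not-pregnant) and -log10 of the unadjusted p of edgeR for 12270 genes, with called genes in dark grey, the 60 members in purple and MX1 as a star. The dashed line marks the unadjusted limit of 0.05. All members lie below it, between -0.23 and 0.25 on the horizontal axis.

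Among heifers pregnant to AI the member level averaged -0.0075 ± 0.27 (SD, n = 8). It averaged 0.0086 ± 0.22 (SD, n = 7) among those not-pregnant. Its lowest, median and highest values were -0.37, -0.06 and 0.55 in the first group and -0.23, 0.01 and 0.43 in the second. The difference between the means was smaller than the spread within either group. With each heifer left out in turn 0 members were called, while 0.652% to 15.3% of all genes were. The share of all genes called was 15.3% without heifer 4 and 13% without heifer 37. The log2 fold change of MX1 was then -0.043 and -0.11. The smallest adjusted p of a member was 0.0963 in edgeR, without heifer 43. With 1 surrogate variable in the model, which sva derives from the counts themselves, 0 members and 0 genes were called. The median log2 fold change of the members was then -0.23, and 13 of them had an unadjusted p under 0.05, all lower in heifers pregnant to AI, against 9.41% of all genes. The surrogate variable itself had an r of -0.53 with the member level over the 15 heifers. It was negative in every heifer pregnant to AI except heifer 4 (0.37). Among not-pregnant heifers it was positive in all except heifer 37 (-0.22). It thus ran largely along pregnancy outcome, and this fit cannot fully tell it from the outcome.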

How the data were processed

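PWBC RNA of 15 heifers was sequenced by the authors as 100 bp paired-end reads, which were aligned with STAR 2.7.5 to the Ensembl Bos taurus genome ARS-UCD1.2. The authors deposited raw counts per gene, without normalization, from STAR's reverse-stranded gene counting, and CPM values over the filtered genes, made with edgeR 3.28.1. The annotation release is not given in the sources used here. The deposited CPM equalled the rescaled counts within a relative difference of 5.11e-15 over 12270 genes, and served 1 alternative.

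From the counts, genes with CPM of at least 1 in 8 of 15 heifers were kept, TMM factors were computed, and log2 CPM was taken with a prior count of 2. The rule left out ENSBTAG00000007554, ENSBTAG00000008471, ENSBTAG00000014628, ENSBTAG00000014707 and ENSBTAG00000016061. Groups were taken from the labels, and compared with edgeR 4.0.16 (quasi-likelihood test, R 4.3.3) over all kept genes, with Benjamini-Hochberg adjustment and pregnancy outcome as the only term. Standard errors follow from the log2 fold change and its F statistic. DESeq2 1.42.0, limma 3.58.1 and sva 3.50.0 served alternatives, and with heifers left out the kept genes stayed the same. The edgeR test and the choice of members were tested on simulated data. The heifer was the replicate. Depth was 15987111 to 24909038 counts per heifer.

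The members, lists and tests were chosen with earlier results of these data known. Named members were set by a rule: the 10 highest r, the 5 widest and 5 narrowest ranges, the 5 smallest adjusted p-values and those beside the limit of 60. Members 10 and 55, and others named for the profiles they show, were named after their values were seen. Interferon gene lists, leukocyte marker lists and promoter motifs were not applied, because IDs could not be paired with symbols, and no position or sequence was used here.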

Additional observations from a re-analysis of the deposited data

Results flagged for a closer look

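Gaps between a heifer and the rest of its group were examined for MX1, the member level and 23 named members in both groups, 50 sets in all, and in 6 of them 1 heifer was set off by a wide gap. About 1 set in 20 would show such a gap by chance, but this rate does not apply to members chosen for following MX1, which was high in heifer 43, or for their wide range, and the sets are not independent. In all 6 the group was the heifers pregnant to AI. Heifer 43 stood above the others in 5 members, with log2 CPM of 5.82 in member 4 (next 4.54), 6.90 in member 6 (next 5.21), 7.21 in member 7 (next 6.75), 2.93 in member 16 (next 1.03) and 5.80 in member 59 (next 4.46). Heifer 4 stood below the others in member 56, at 4.94 (next 5.68). MX1 and the member level had no such gap in either group.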

How the results depend on the processing

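The number of members called stayed 0 in all 22 alternatives, and MX1 was not called in any. The median range of the members moved by less than the SD of the range over members, 0.73. Their median log2 fold change moved by less than the pooled within-group SD of the member level, 0.25. It moved most with the surrogate variable, to -0.23, and with library size only, to 0.16. Both values lay outside the quartiles of the members' log2 fold changes, -0.070 and 0.060. Without heifer 43 the median was -0.075, also just below the lower quartile. Scaling by library size only leaves out the TMM factors, which were higher on average in heifers pregnant to AI. With it, the log2 fold change of all genes moved at its median from 0.014 to 0.18 and that of the members to 0.16. The sign turned for MX1 (0.016) and members 54 (0.049), 3 (0.015) and 50 (0.079). With each heifer left out MX1 lay between -0.38 and 0.10, and with the surrogate variable it was -0.74. The median r with MX1, 0.73, was 0.65 by Spearman, 0.78 within heifers pregnant to AI and 0.55 without heifers 33 and 43. Of the 60 members, 27 were chosen again by Spearman, 15 without heifers 33 and 43, 39 with values centred within groups and 28 to 55 with each heifer left out. Scaling by library size only kept 41, no filter beyond 1 count kept 42 and log2 of the deposited CPM plus 1 kept 40. DESeq2 size factors or a prior count of 0.5 kept 60, CPM of at least 1 in all heifers kept 58 and thinned libraries kept 55. With the 5 genes left out by the rule as anchors, in the order of their IDs, 5, 14, 2, 16 and 15 were chosen. The span of the member level, 0.91, was 1.23 with library size only. The cause of these shifts was not tested. Centring, thinning, the range and reselection without heifers 33 and 43, and the settings of the member level were chosen after seeing the data. Depth limits the 6 members with under 50 counts in a heifer. No paired analysis was possible because each heifer had 1 outcome and the labels give no number that links heifers of both groups.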

Other observations

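The 60 genes with the lowest r with MX1, between -0.80 and -0.64, were chosen for that r, and so tended to be low where MX1 was high. Of them, 45 were lowest in heifer 33 or 43. Their median range was 1.24 on the log2 scale, beside 0.86 for the members. Only 27 genes had an r as far below 0 as member 60 was above it. Of these 60 genes edgeR called 1, which was higher in heifers pregnant to AI, where 5.85% of all genes were called, and their median log2 fold change was 0.028.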
